A study of Mus musculus with 2 samples.

Results

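The Mir23, Mir27 and Mir24 genes form 2 paralogous clusters in the mouse, Mir23b, Mir27b and Mir3074-1 on chromosome 13 and Mir23a, Mir27a and Mir24-2 on chromosome 8. These 6 genes were taken by symbol from the 1973 gene entries of the tables, and all 6 passed the detection minimum of 10 counts in both libraries, as did 395 entries in all. The strand opposite Mir3074-1 holds Mir24-1, the paralog of Mir24-2, so its reads are given beside the members. The study sequenced small RNA of microRNA size from embryonic facial prominence of B6NCrl mice at embryonic day 12.5. Its 2 libraries are replicates of 1 group, replicate 1 from 120 pooled embryos and replicate 2 from 88, with male and female embryos mixed in each and no treatment, mutation or control group. The comparisons are therefore between genes of the same libraries and between the libraries.

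A microRNA gene is transcribed as a hairpin, which is cut to a short mature strand from its 5′ or 3′ arm. The mature strand guides Argonaute proteins to mRNAs, mainly through its seed, bases 2 to 8, and lowers the output of those mRNAs. The 2 clusters arose by duplication and are known from blood vessels, where they act in angiogenesis, from bone, where the chromosome 8 cluster restrains osteoblast differentiation, and from muscle, where miR-27 targets Pax3. In zebrafish, miR-27 acts in the cartilage of the pharyngeal arches.

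The mature strands are shown first because the seed defines the families and because the similarity of the paralogs decides which reads a gene count can hold. All sequences are from RefSeq on GRCm38.p6, written 5′ to 3′ with the seed in capitals.
miR-23a-3p (chr8:84208563-84208583, plus strand): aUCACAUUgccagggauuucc
miR-27b-3p (chr13:63300760-63300780, plus strand): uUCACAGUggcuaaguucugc
miR-27a-3p (chr8:84208727-84208747, plus strand): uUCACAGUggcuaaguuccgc
miR-24-3p (chr13:63301251-63301272 and chr8:84208875-84208896, plus strand): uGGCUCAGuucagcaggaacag
miR-24-1-5p (chr13:63301213-63301235, plus strand): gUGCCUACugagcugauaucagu
miR-24-2-5p (chr8:84208839-84208860, plus strand): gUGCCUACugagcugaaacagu
miR-3074-5p (chr13:63301249-63301270, minus strand): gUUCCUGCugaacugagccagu
The miR-27 strands of the 2 clusters share their seed and differ at 1 position, C19U, with the miR-27a-3p base first and positions counted from its 5′ end. The matching stretch of the Mir23b hairpin differs from miR-23a-3p likewise at 1 position, U19A. The miR-24-3p of both clusters is the same 22 bases. The 5′ strands of Mir24-1 and Mir24-2 have the same first 16 bases and the same seed. The stretch of the Mir23b hairpin holds the seed of miR-23a-3p too. The RefSeq mature strands searched do not include miR-23b-3p. Among them, none of a gene outside the 2 clusters had the seed of miR-23a-3p or of the miR-27 3′ strands. Of genes with an entry in the tables, 4 outside the clusters had the seed of miR-24-3p (Mir6413, Mir6410, Mir6369 and Mir5124b). They had 0 counts in both libraries.

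The hairpins show how far each pair can be told apart, with the longest stretch shared by the pair in capitals.
Mir23b: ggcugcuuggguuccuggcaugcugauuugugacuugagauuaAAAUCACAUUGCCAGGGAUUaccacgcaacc
Mir23a: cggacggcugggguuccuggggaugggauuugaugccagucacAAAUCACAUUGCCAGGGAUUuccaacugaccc
Mir27b: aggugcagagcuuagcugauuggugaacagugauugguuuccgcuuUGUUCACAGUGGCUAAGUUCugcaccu
Mir27a: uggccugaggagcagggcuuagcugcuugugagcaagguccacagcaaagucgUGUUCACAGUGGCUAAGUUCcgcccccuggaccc
Mir24-1: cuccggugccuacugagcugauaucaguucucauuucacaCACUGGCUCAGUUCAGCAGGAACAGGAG
Mir24-2: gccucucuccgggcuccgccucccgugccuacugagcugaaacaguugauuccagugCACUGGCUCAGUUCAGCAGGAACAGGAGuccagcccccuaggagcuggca
The shared stretch was 20 bases for the Mir23 pair, 20 bases for the Mir27 pair and 28 bases for Mir24-1 and Mir24-2. Over the whole hairpins, identity in a global alignment was 73.8% for the Mir23 pair, 61.1% for the Mir27 pair and 54.5% for the Mir24 pair. The Mir24 stretch covers the whole of miR-24-3p, whereas the Mir23 and Mir27 stretches end before the last bases of their 3′ strands. Among windows of 22 bases, 0 of 53 in Mir23b and 0 of 54 in Mir23a occurred in a microRNA hairpin at another place. The same held for 0 of 52 windows in Mir27b and 0 of 66 in Mir27a, against 9 of 64 in Mir3074-1 and 9 of 86 in Mir24-2. These windows are longer than the stretch shared by the Mir23 or the Mir27 pair. With windows of 20 bases, 1 was shared in each of Mir23b, Mir23a, Mir27b and Mir27a. A shorter read inside that stretch could thus map to both genes of a pair.

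Mir3074-1 lies on the other strand of Mir24-1, and its hairpin is shown with miR-3074-5p in capitals.
Mir3074-1: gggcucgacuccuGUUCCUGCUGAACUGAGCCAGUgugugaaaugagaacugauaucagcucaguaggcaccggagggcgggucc
This strand is complementary to most of miR-24-3p, and it too occurs whole at the chromosome 8 cluster, in the Mir3074-2 hairpin. Mir24-1 and Mir3074-2 have no entry of their own in the tables. Multiply mapped reads stand in a row of their own and are not assigned to genes, so a read that is exactly miR-24-3p or miR-3074-5p could not enter the counts of either cluster. Multiply mapped reads made up 26.0% of all reads in replicate 1 and 27.9% in replicate 2, and the tables do not split them by sequence. The counts of Mir24-2, of Mir3074-1 and of its opposite strand are therefore counts of the reads that map to 1 place, and the amount of miR-24-3p was not measured here.

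**Figure D1:**
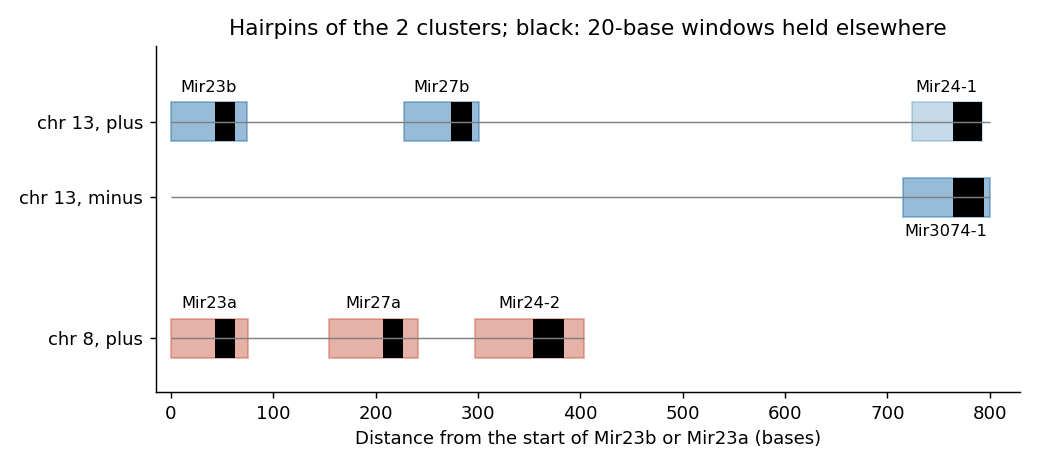
Hairpins of the chromosome 13 cluster (blue, plus strand above and minus strand below it) and the chromosome 8 cluster (red), against the distance in bases from the start of Mir23b or Mir23a. Black marks bases inside a 20-base window that also occurs in a microRNA hairpin at another place, 20 bases in each Mir23 and Mir27 hairpin and 30 in Mir3074-1 and Mir24-2; the pale Mir24-1 has no entry of its own in the tables.

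The clusters keep the same order of genes, and they are wider apart on chromosome 13. Mir23b (ENSMUSG00000065599.1) lies at chr13:63300484-63300557, Mir27b (ENSMUSG00000065475.1) at chr13:63300712-63300784 and Mir3074-1 (ENSMUSG00000092741.1) at chr13:63301199-63301283 on GRCm38. Mir23a (ENSMUSG00000065611.1) lies at chr8:84208518-84208592, Mir27a (ENSMUSG00000065444.1) at chr8:84208672-84208758 and Mir24-2 (ENSMUSG00000065541.1) at chr8:84208815-84208921. The map of the hairpins shows 154 bases between Mir23b and Mir27b, against 79 between Mir23a and Mir27a. From Mir27b to Mir24-1 there are 423 bases, and from Mir27a to Mir24-2 there are 56. The chromosome 13 cluster lies inside the aminopeptidase gene Aopep (2010111I01Rik in GENCODE M21), with Mir23b in an intron and Mir27b overlapping an annotated exon. Mir3074-1, on the minus strand, lies in an intron of the DNA repair gene Fancc. On chromosome 8, Mir23a and Mir27a overlap no annotated gene, and the end of Mir24-2 overlaps the lincRNA Gm26532 by 2 bases. The positions and strands are from M21, where the identifiers of the 3 chromosome 13 genes carry version 2 against version 1 in the tables. The strand of the Mir3074-1 entry in GENCODE M4, the annotation behind the counts, was not checked. If it were the other one, the own-strand and opposite-strand values of Mir3074-1 would change places.

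Replicate 1 held 4719337 own-strand gene counts and replicate 2 held 5929220, and levels are given as CPM, each count scaled to 1000000 of these. The sums of marker lists gave the setting. All 7 epithelial genes were detected, with summed levels of 30805 CPM in replicate 1 and 35800 in replicate 2, and the endothelial marker Mir126a stood at 29030 and 27230 CPM. Of the other lists, 2 of 3 matched striated muscle genes were detected (1081 and 1498 CPM), 3 of 3 erythroid genes (223 and 331 CPM) and 3 of 4 matched leukocyte genes (435 and 444 CPM, with Mir142b at 0 counts). Mir142, also on the leukocyte list, had no matched entry, and the count of Mir142b does not stand for it. Neural genes were detected for 1 of 5 (17.6 and 11.97 CPM, with 2 genes at 0 counts), and the liver gene Mir122 stood at 13.8 and 13.5 CPM. The neural genes are numbered copies of Mir124a and Mir9. Reads shared by copies are multiply mapped and not counted, so these low levels do not show that neural reads were few. No microRNA in these lists defines the facial prominence itself. The tissue was sequenced whole, so fewer cells of a type and less RNA per cell cannot be told apart, and which cells gave the reads of the members was not tested.

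The 6 members together held 5.13% of gene counts in replicate 1 (exact Clopper-Pearson 95% interval 5.11 to 5.15) and 5.16% in replicate 2 (interval 5.15 to 5.18). Their mean share was 5.15% ± 0.0264 (SD, n = 2 as for all later means). Nearly all of this was miR-23. Of the counts of the 6 genes, Mir23b held 70.1% ± 0.370 and Mir23a 24.1% ± 0.431. Mir27b held 4.95% ± 0.748 and Mir27a 0.357% ± 0.0258. Mir24-2 held 0.244% ± 0.0266 and Mir3074-1 0.184% ± 0.000196. The RefSeq mature strands at these hairpins are 21 to 23 bases long, so CPM were not scaled by length. The tables do not separate the 5′ and 3′ arms of a hairpin.

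Mir23b, whose miR-23 seed family acts in vessels and bone, was the highest member. It had 170364 counts or 36099 CPM in replicate 1 (exact interval 35931 to 36268) and 213996 counts or 36092 CPM in replicate 2 (interval 35942 to 36242). The levels of the 2 libraries overlapped within counting error, and the SD of 5.22 CPM around the mean of 36095 CPM is smaller than either counting interval. By mean level Mir23b ranked 6 among the 395 detected genes, at rank 5 in replicate 1 and rank 6 in replicate 2. The detected genes nearest to it in level over the 2 libraries, by distance in log2(CPM + 1), were Mirlet7i (35943 and 30648 CPM, distance 0.24) and Mir322 (33299 and 42672 CPM, distance 0.27).

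Mir23a, its paralog on chromosome 8, had 59092 counts or 12521 CPM in replicate 1 (interval 12421 to 12622) and 72914 counts or 12297 CPM in replicate 2 (interval 12209 to 12386). It averaged 12409 ± 158 CPM and held rank 21 in each library. Mir652 (13402 and 14011 CPM, distance 0.21) and Mir183 (12397 and 9896 CPM, distance 0.31) were nearest in level.

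Mir27b, the miR-27 gene of the chromosome 13 cluster, had 10700 counts or 2267 CPM in replicate 1 (interval 2225 to 2311) and 16781 counts or 2830 CPM in replicate 2 (interval 2788 to 2873). The intervals of the 2 libraries did not overlap, and replicate 2 was the higher. Its mean of 2549 ± 398 CPM put it at rank 69, next to Mir381 (2487 and 2839 CPM, distance 0.13) and Mir22 (2672 and 2798 CPM, distance 0.24).

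Mir27a of chromosome 8 had 819 counts or 174 CPM in replicate 1 and 1148 counts or 194 CPM in replicate 2, a mean of 184 ± 14.2 CPM at rank 172. Mir301b (distance 0.051) and Mir449a (distance 0.14) were nearest to it. Mir24-2, which carries miR-24, had 545 counts or 115 CPM in replicate 1 and 805 counts or 136 CPM in replicate 2, a mean of 126 ± 14.3 CPM at rank 196. Its nearest genes were Mir669c (distance 0.10) and Mir331 (distance 0.16). Mir24-2 lay below Mir27a in both libraries, and the ranges of these neighbours over the libraries did not overlap.

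Mir3074-1 was the lowest member on its own strand, with 445 counts or 94.3 CPM in replicate 1 and 564 counts or 95.1 CPM in replicate 2. It averaged 94.7 ± 0.586 CPM at rank 215, nearest to Mir19a (distance 0.079) and Mir539 (distance 0.13). On the opposite strand, where Mir24-1 lies, there were 426 reads or 90.3 CPM in replicate 1 and 544 reads or 91.7 CPM in replicate 2, a mean of 91.0 ± 1.05 CPM. The strands were thus nearly even, with 51.1% of the reads at this place on the Mir3074-1 strand in replicate 1 and 50.9% in replicate 2. The ratio of the Mir3074-1 strand over the opposite strand was 1.04 in each library, with intervals of 0.913 to 1.20 and 0.920 to 1.17 that include 1, so a difference between the strands was not detectable at this depth. Over all genes, the own strand held 96.8% of gene reads in replicate 1 and 96.7% in replicate 2. At the other 5 members the opposite strand had between 0 and 5 reads in a library.

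**Figure D2:**
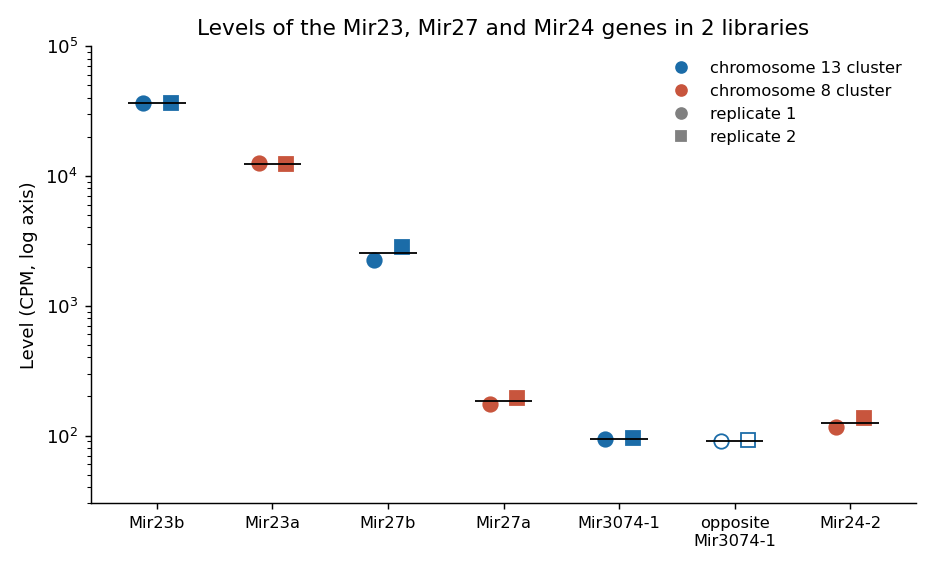
Level in CPM (log axis) of the 6 members and of the strand opposite Mir3074-1 (open symbols), with replicate 1 as circles, replicate 2 as squares and the mean as a line; blue is chromosome 13 and red is chromosome 8. Mir23b lies near 36095 CPM and Mir23a near 12409 CPM in both libraries, while the entries at the Mir24 positions lie between 90.3 and 136 CPM.

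The chromosome 13 cluster gave more counts than the chromosome 8 cluster for miR-23 and for miR-27, and fewer on the strand of Mir24-1 and Mir24-2. The ratios compare genes within a library, with exact binomial 95% intervals that cover counting error only, and over the 2 libraries an exact two-sided sign-flip permutation test of each gave p = 0.5, the smallest that 2 libraries allow. The cluster sums were 38461 CPM for chromosome 13 and 12810 CPM for chromosome 8 in replicate 1. In replicate 2 they were 39017 CPM for chromosome 13 and 12627 CPM for chromosome 8. The sum for chromosome 13 was 3.002 times that for chromosome 8 in replicate 1 (interval 2.97 to 3.03) and 3.09 times in replicate 2 (interval 3.06 to 3.12). On average Mir23b made up 93.2% of the chromosome 13 sum and Mir23a 97.6% of the chromosome 8 sum, so the sums mostly compare the Mir23 pair. Reads that are exactly miR-24-3p are in neither sum.

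Mir23b exceeded Mir23a 2.88-fold in replicate 1 (interval 2.86 to 2.91) and 2.93-fold in replicate 2 (interval 2.91 to 2.96), a mean log2 ratio of 1.54 ± 0.018. Mir27b exceeded Mir27a 13.1-fold in replicate 1 (interval 12.2 to 14.04) and 14.6-fold in replicate 2 (interval 13.8 to 15.5), a mean log2 ratio of 3.79 ± 0.11. The intervals of the Mir27 ratio lay above those of the Mir23 ratio in both libraries, so the paralogs were not in the same proportion along the clusters. Of the counts of each pair, the chromosome 13 gene held 74.2% and 74.6% for Mir23 and 92.9% and 93.6% for Mir27 in replicates 1 and 2. Any reads that lie wholly inside the stretch shared by a pair are multiply mapped and missing from both genes.

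At the Mir24 position, reads opposite Mir3074-1 were 0.782 times those of Mir24-2 in replicate 1 (interval 0.687 to 0.889) and 0.676 times in replicate 2 (interval 0.605 to 0.754). The mean log2 ratio was -0.46 ± 0.15, and the chromosome 13 side was the lower in both libraries. This ratio rests on reads that map to 1 place and says nothing of miR-24-3p. It also depends on the strand counted, since with both strands of each entry the mean log2 ratio was 0.56, the Mir3074-1 reads then being added to the chromosome 13 side.

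**Figure D3:**
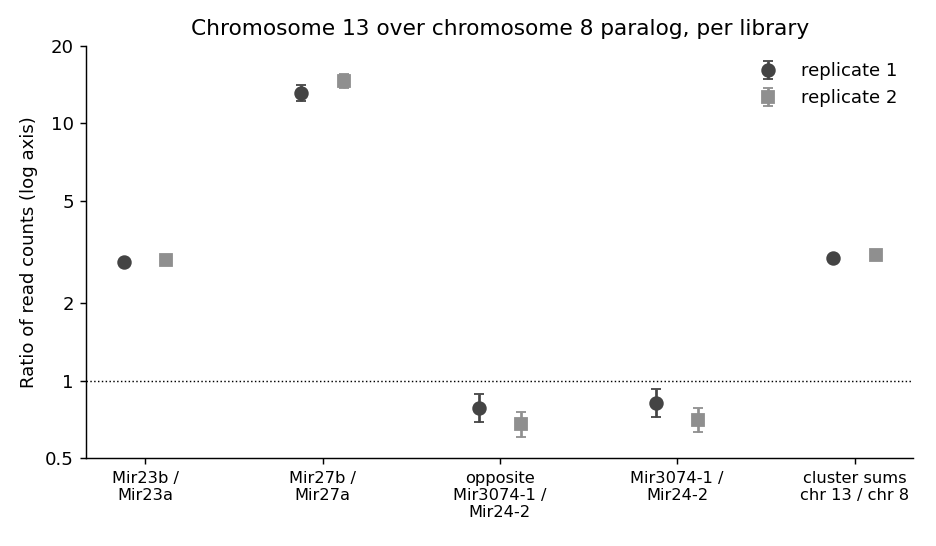
Ratio of read counts of the chromosome 13 entry over its chromosome 8 paralog (log axis), per library, with exact binomial 95% intervals for counting error; the dotted line marks a ratio of 1. Mir27b over Mir27a lies at 13.1 and 14.6, Mir23b over Mir23a at 2.88 and 2.93, and the entries at the Mir24 position lie below 1.

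Within each cluster the order of levels was the same in both libraries, and levels dropped steeply after the first gene, although the 3 hairpins of a cluster lie within 800 bases on chromosome 13 and 404 bases on chromosome 8. Mir23b exceeded Mir27b 15.9-fold in replicate 1 and 12.8-fold in replicate 2. Mir23a exceeded Mir27a 72.2-fold in replicate 1 and 63.5-fold in replicate 2. Mir27b exceeded Mir3074-1, which lies on the minus strand, 24.0-fold and 29.8-fold. It exceeded the reads opposite Mir3074-1, on the strand of Mir24-1, 25.1-fold and 30.8-fold. Mir27a exceeded Mir24-2 only 1.503-fold (interval 1.35 to 1.68) and 1.43-fold (interval 1.302 to 1.56). Reads that are exactly miR-24-3p or miR-3074-5p are missing from the last entry of each cluster, so these folds do not measure a drop from miR-27 to miR-24. How evenly different mature strands were captured in the libraries was not tested, so these ratios are of counts, not of molecules.

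Other paralogous polycistrons, those of the Mir17 family, known for promoting cell proliferation, also had uneven members. The highest gene held 93.2% ± 0.960 of the counts of the Mir23b cluster and 97.6% ± 0.249 of those of the Mir23a cluster. It held 63.5% ± 1.15 in the Mir17 to Mir92-1 cluster, 41.8% ± 2.90 in the Mir106a to Mir363 cluster and 59.4% ± 2.24 in the Mir106b to Mir25 cluster. These clusters have 6, 6 and 3 genes. All these shares are of reads that map to 1 place, so reads that are exactly miR-24-3p are missing from the Mir23b and Mir23a clusters. Mir3074-1, counted in the Mir23b cluster, lies on the minus strand, opposite to Mir23b and Mir27b. How many reads the clusters led by Mir17, Mir106a and Mir106b lost as multiply mapped was not tested. In both libraries the share was higher in the Mir23b and Mir23a clusters than in each of the 3, with p = 0.5 for each difference by the exact two-sided sign-flip permutation test, the smallest that 2 libraries allow. Between the highest and lowest gene the fold was 383 and 379 in replicates 1 and 2 for the Mir23b cluster and 108 and 90.6 for the Mir23a cluster. It was 1785 and 2071 for the Mir17 cluster, 131 and 121 for the Mir106a cluster and 21.04 and 17.7 for the Mir106b cluster, which like the Mir23 clusters has 3 genes. The spans of the Mir23 clusters thus lay inside the range of the others. Summed levels were 38739 ± 393 CPM for the Mir23b cluster and 12719 ± 130 CPM for the Mir23a cluster, against 81312 ± 4073, 2480.5 ± 45.9 and 25406 ± 1201 CPM for the clusters led by Mir17, Mir106a and Mir106b.

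**Figure D4:**
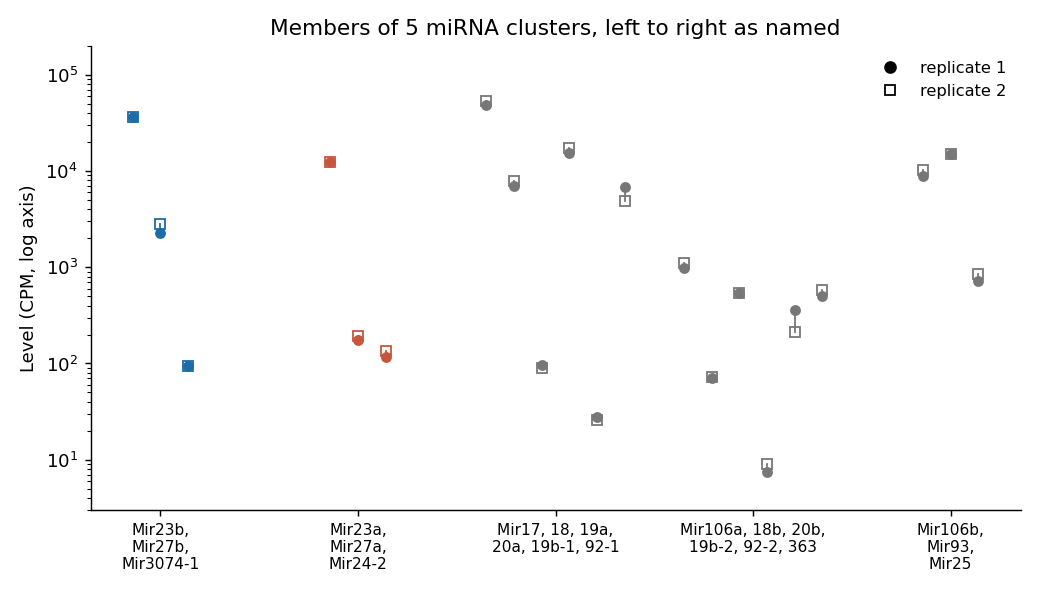
Level in CPM (log axis) of each gene of the Mir23b cluster (blue), the Mir23a cluster (red) and 3 clusters of the Mir17 family (grey), left to right as named, with replicate 1 as filled circles and replicate 2 as open squares. In the Mir23b and Mir23a clusters the first gene lies far above the others, with 93.2% and 97.6% of the cluster's counts, which hold only reads that map to 1 place.

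Between the pools the 2 miR-23 genes differed by at most 0.031 on the log2 scale (0.068 with a minimum of 100 counts), while Mir27b, Mir27a and Mir24-2 were lower in replicate 1. Log2 ratios of replicate 1 over replicate 2 are given after TMM scaling, with an exact binomial test per gene adjusted over the 395 detected genes by the Benjamini-Hochberg method. This test covers counting error and compares the libraries, not conditions. By it 51.9% of all detected genes differed, 24.8% higher and 27.1% lower in replicate 1, and 4.05% differed at least 2-fold. Of the 6 members 4 differed, 1 higher and 3 lower in replicate 1, and 0 reached 2-fold, which is near the background.

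Mir27b had the widest gap of the members, a log2 ratio of -0.31 (interval -0.35 to -0.28, exact binomial adjusted p = 1.46e-69). Mir24-2 followed at -0.23 (interval -0.39 to -0.070, exact binomial adjusted p = 0.00927) and Mir27a at -0.15 (interval -0.28 to -0.022, exact binomial adjusted p = 0.0407). Mir23a was higher in replicate 1 by 0.031 (interval 0.016 to 0.047, exact binomial adjusted p = 0.000256), a small difference that the high counts made detectable. Mir23b stood at 0.0055 (interval -0.0037 to 0.015, exact binomial adjusted p = 0.346) and Mir3074-1 at -0.0074 (interval -0.19 to 0.17, exact binomial adjusted p = 0.992). The median absolute log2 ratio was 0.092 over the 6 members and 0.23 over all detected genes. With a coefficient of variation of 0.2 allowed between pools, edgeR's exact test called 0 of the 6 members, and 0 had an unadjusted p under 0.05. The Mir27a call was also lost with a minimum of 100 counts (exact binomial adjusted p = 0.109) and with both strands counted (exact binomial adjusted p = 0.0649), and the Mir23a call with no minimum (exact binomial adjusted p = 0.184). Mir23b was called higher in replicate 1 with a minimum of 100 counts (log2 ratio 0.042, exact binomial adjusted p = 5.65e-19) and with both strands counted (0.017, exact binomial adjusted p = 0.00095). Its counts were the same in these settings, with 0 reads on its opposite strand. Only the library scaling and the set of genes tested differed.

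**Figure D5:**
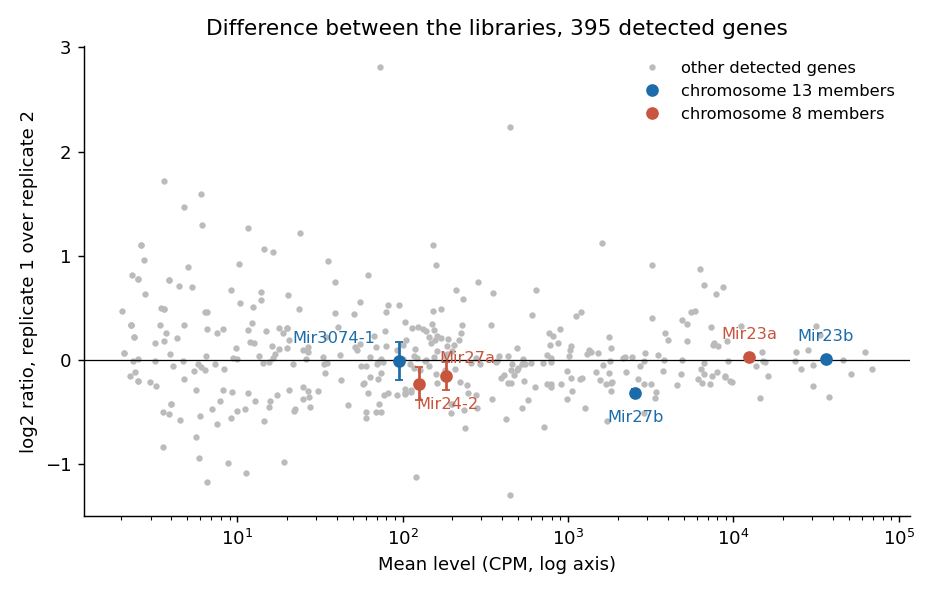
Log2 ratio of replicate 1 over replicate 2 against mean level in CPM (log axis) for the 395 detected genes, with the 6 members in colour and their exact 95% intervals for counting error. The members lie between -0.31 and 0.031, with Mir27b lowest, inside a range of -1.29 to 2.81 over all genes.

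Genes known from the vessels and skeleton in which these clusters act set the scale for the members' levels. Of the endothelial list, 3 of 4 genes were analysed and all 3 detected. Mir126a, which maintains vessel integrity, had 29030 CPM in replicate 1 and 27230 in replicate 2, below Mir23b and above Mir23a in each library. Mir221 (148 and 173 CPM) and Mir222 (109 and 112 CPM) lay between Mir27a and Mir3074-1 in each library. Mir126a was called higher in replicate 1 (log2 ratio 0.098) and Mir221 lower (-0.22), with a list median log2 ratio of -0.036 against 0.0026 over all genes, of which 24.8% were called higher and 27.1% lower.

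Of the mural and smooth muscle list, 2 of 3 genes were detected, and both were lower in replicate 1, as were Mir27b and 27.1% of all detected genes. Mir143, a gene of smooth muscle, had 12566 CPM in replicate 1 and 16284 in replicate 2, close to Mir23a in replicate 1 and above it in replicate 2, at a log2 ratio of -0.37. Mir145a had 196 and 274 CPM at a log2 ratio of -0.48, and Mir145b had 0 counts, which allows up to 0.636 CPM in replicate 1 and 0.506 in replicate 2. The median log2 ratio of the 2 detected genes was -0.42, below the log2 ratio of Mir27b. Other lists were lower in replicate 1 as well, with 6 of 7 epithelial genes called lower and 1 higher (median -0.21), both detected striated muscle genes called lower (median -0.72) and 1 of 3 erythroid genes called lower (Mir451a, -0.66). The part of any of these cell types in the Mir27b difference was not tested.

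Of the bone and cartilage list, 10 of 12 genes were detected, with a median log2 ratio of -0.22. Mir140 and Mir455 were called higher in replicate 1, and Mir199a-2, Mir199b, Mir204, Mir211 and Mir29c lower, 2 and 5 genes, against 24.8% higher and 27.1% lower over all detected genes. Mir204 and Mir211 had the lowest log2 ratios in the list (-0.64 and -1.29). Both are also known from the eye, so the list median does not stand for skeletal cells alone. Mir214 of skeletal mesenchyme (45630 and 45910 CPM) lay above Mir23b in both libraries, and Mir140, which is known from cartilage (15199 and 14466 CPM), lay above Mir23a. Mir455 (1906 and 1638 CPM) and Mir199b (1689 and 1843 CPM) lay below Mir27b. The other detected genes were Mir204 (559 and 875 CPM), Mir211 (256 and 631 CPM, the widest gap in the list), Mir199a-2 (222 and 278 CPM), Mir29c (49.8 and 70.7 CPM), Mir29a (58.3 and 52.5 CPM) and Mir199a-1 (23.9 and 30.7 CPM). Mir29b-1 (5 and 12 counts) and Mir29b-2 (0 and 6 counts) were below the minimum. Any reads shared by numbered copies, such as Mir199a-1 and Mir199a-2 or Mir29b-1 and Mir29b-2, are multiply mapped and missing from these levels.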

How the data were processed

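Small RNA was sequenced in 2 libraries of 1 group. For each, the deposited table gives raw read counts for each gene entry, unnormalised and not pooled, on both strands, on 1 strand and on the other, from mm10 and GENCODE M4, per the files' descriptions. The aligner, counter and trimming are not given in the sources used here. The tables have no header, and the column with 96.8% and 96.7% of gene reads was taken as the own strand. GENCODE M21 gave symbols for 1894 of 1973 identifiers. Unmapped (25.7% and 19.4%), multiply mapped (26.0% and 27.9%), unassigned (5.57% and 4.72%) and ambiguous (0) reads stayed out of library sizes. The libraries held 11414919 and 12792420 reads.

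CPM is the own-strand count over its sum, times 1000000. Detection needed 10 counts in both libraries (2.12 and 1.69 CPM). A count of 0 allows 3 counts. Intervals are at the 95% level and cover counting error only. TMM factors (edgeR 4.0.16, R 4.3.3) were 0.998 and 1.002. The exact binomial test (scipy 1.17.1) was tested on simulated data with counting error only, plain library sums and a 2-fold minimum. That simulation does not cover variation between pools or calls below 2-fold. One library against another leaves edgeR's quasi-likelihood test no residual degrees of freedom. Hairpins of all 7 genes were identical in RefSeq and GENCODE, and windows were searched in RefSeq microRNA hairpins alone. Named genes were the members, the 2 nearest detected genes to each, 3 lists and genes sharing a seed. Members and lists were chosen with earlier results of these data known. Alternatives were other denominators, scalings (DESeq2 1.42.0), strands, count minimums and each library alone.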

Additional observations from a re-analysis of the deposited data

Results flagged for a closer look

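The strand opposite Mir24-2, where Mir3074-2 lies and which entered only the alternative with both strands counted, held 5 reads in replicate 2, above the 3 counts that a count of 0 allows, and 2 reads in replicate 1.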

How the results depend on the processing

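Summed over the 6 members, the level was 51457 CPM. It was 49777 with the gene total of both strands as denominator, 22567 with all reads as denominator and 49866 with both strands counted. With each replicate left out it lay between 51271 and 51644 CPM, and with either replicate left out the log2 ratios lay between 1.59 and 1.63 for the cluster sums, 1.53 and 1.55 for Mir23b over Mir23a, 3.71 and 3.87 for Mir27b over Mir27a and -0.57 and -0.36 for reads opposite Mir3074-1 over Mir24-2. Only the last of these turned round under another setting, to 0.56 with both strands counted, since that adds the Mir3074-1 strand. The 4 members called by the exact binomial test became 0 with edgeR's exact test at a coefficient of variation of 0.2, and the 205 genes called in all became 2. With that test 20 of the 395 genes had an unadjusted p under 0.05. Log2 ratios near 0 changed sign for Mir23b with no count minimum (-0.011) and for Mir3074-1 with a minimum of 100 counts (0.029). Plain sums and DESeq2 size factors changed no call of a member. No paired analysis was possible because there is 1 group, and the difference between libraries cannot be refitted with a library left out.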
